A study of Mus musculus with 20 samples.

Results

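Bile acid synthesis and transport was followed through 10 genes in mouse liver, chosen by symbol from 24972 rows of the liver table. They were the synthesis enzymes Cyp7a1, Cyp7b1, Cyp8b1 and Cyp27a1, the uptake carriers Slco1a1, Slco1b2 and Slc10a1, the canalicular pumps Abcb11 and Abcc2, and the nuclear receptor Nr0b2. All 10 symbols were found. RNA sequencing covered total liver of WT mice on alcohol diet (n = 4) or control diet (n = 4) and of RageΔMye mice on alcohol diet (n = 3) or control diet (n = 3), fed for 6 weeks and all labelled male. The series also holds RAW264.7 cells treated for 6 hours with the [O] HMGB1 and IL1β complex (n = 3) or BSA (n = 3). The name RageΔMye points to a deletion of RAGE, whose gene is Ager, in myeloid cells, and the labels give neither the Cre driver nor the age of the animals. Nothing in the labels says that replicates came from separate animals, so p-values measure the spread between these libraries.

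Bile acids are made from cholesterol in hepatocytes. The classical route starts with CYP7A1, the rate-limiting 7-alpha-hydroxylase, and the alternative route starts with the mitochondrial sterol 27-hydroxylase CYP27A1 and runs through the oxysterol 7-alpha-hydroxylase CYP7B1. CYP8B1, the sterol 12-alpha-hydroxylase, sets the share of cholic acid in the product. Bile acids return from the gut through the sodium-dependent carrier NTCP (Slc10a1) and the organic anion carriers OATP1A1 (Slco1a1) and OATP1B2 (Slco1b2). Conjugated bile acids leave the hepatocyte through the bile salt export pump BSEP (Abcb11) and the organic anion pump MRP2 (Abcc2). Bile acids bound to the receptor FXR (Nr1h4) induce SHP, the product of Nr0b2, which represses synthesis. In mouse liver, Slco1a1 and Cyp7b1 are known as genes with higher expression in males.

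Several properties of the libraries touch all the values below, which are in TPM, a level scaled for transcript length and for the total of the library. Xist, expressed from the inactive X chromosome of females, was at 17.8 to 27.3 TPM in WT alcohol libraries and at 0.00165 to 0.135 TPM in WT control libraries. Summed over 4 Y-linked genes, the level was 0 to 0.0161 TPM in WT alcohol libraries and 11.3 to 16.6 TPM in WT control libraries. In WT liver the diet and the difference in these sex-linked transcripts cannot be told apart, whatever the sex label. The Y-linked sums did not overlap between the diets in libraries labelled RageΔMye either, where the sum was 0.276 to 1.74 TPM on alcohol and 3.16 to 4.50 TPM on control diet, and Xist was at 0.322 to 0.990 TPM on alcohol and 0 to 3.101 TPM on control diet. Ager went against the genotype label, with 93.1 to 166 TPM in alcohol and 101 to 128 TPM in control libraries labelled RageΔMye, 0.0378 to 0.478 TPM in WT alcohol libraries and 0.0194 to 0.199 TPM in WT control libraries. Libraries labelled RageΔMye listed 7596 to 8502 genes above 0, and WT libraries 15113 to 15599. Genes with an exon overlapping an exon of the opposite strand took 55.8% to 61.7% of their TPM, against 15.4% to 18.3% in WT libraries. Libraries labelled RageΔMye also lacked a value above 0 for 1 to 3 of 14 housekeeping genes, and WT libraries for none, so a 0 in those libraries is given as listed at 0. In GENCODE vM21, Abcb11 alone of the 10 genes has opposite-strand genes that overlap its exons, the antisense gene Gm13613 over 136 bases and the pseudogene Gm13614 over 19 bases, neither of which has a row in the liver table, and the strand setting of the counting is not given. How many reads lie behind each level is unknown.

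The livers held the hepatocytes that make these genes. The sum of 9 measured hepatocyte markers, albumin among them, was 150742 to 168670 TPM in WT alcohol libraries and 135165 to 164596 TPM in WT control libraries. Of these 9 markers 1 was called lower on alcohol in WT liver and none higher. In libraries labelled RageΔMye the sum was 44302 to 58312 TPM on alcohol and 49128 to 64797 TPM on control diet. Of other cell types, leukocyte markers differed most clearly between the WT diets. The sum of 7 monocyte and neutrophil markers was 142 to 239 TPM on alcohol and 31.0 to 74.4 TPM on control diet, with 4 of 5 tested markers higher and none lower, and at most 1 of the 7 was listed at 0 in a WT library. Sums overlapped between the WT diets for 7 cholangiocyte markers (45.9 to 147 TPM on alcohol and 28.9 to 82.9 TPM on control diet), 7 Kupffer cell markers (145 to 333 TPM and 193 to 214 TPM) and 5 endothelial markers (66.2 to 149 TPM and 43.5 to 109 TPM), and no marker of these lists was listed at 0 in WT. Of the tested markers, 1 of 3 for cholangiocytes was lower, 2 of 5 for endothelium were higher and none of 7 for Kupffer cells was called. For stellate cells 1 of 4 was higher, and for T and NK cells 1 of 4. These counts, and those above for hepatocytes and leukocytes, stand beside 13.3% of all genes tested called higher and 17.9% called lower. In libraries labelled RageΔMye the cholangiocyte sum was 5.53 to 16.7 TPM on alcohol and 30.0 to 35.4 TPM on control diet, with 4 or 5 of the 7 markers listed at 0. There the endothelial sum, 0 to 3.78 TPM on alcohol and 5.15 to 54.4 TPM on control diet, did not overlap either. Nor did the sum of 6 stellate markers, 0.602 to 2.48 TPM on alcohol and 3.67 to 6.93 TPM on control diet. Of the 5 endothelial markers 3 to 5 were listed at 0 on alcohol and 1 to 4 on control diet. Of the 6 stellate markers 4 or 5 were listed at 0 on alcohol and 3 or 4 on control diet. None of the tested markers, 3 for cholangiocytes, 4 for endothelium and 1 for stellate cells, was called there. The part of these cells in the results was not tested. In bulk liver, fewer hepatocytes and less RNA per hepatocyte cannot be told apart.

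RefSeq promoters, build GRCm38.p6, were on hand for 8 of the 10 genes, in 9 windows, since Slc10a1 has a pair. Those of Slco1a1 and Slco1b2 are shown because these neighbouring carriers on chromosome 6 had different diet values in WT liver, and those of Cyp8b1 and Abcb11 because these genes fell there. Each run is the 250 bases before the annotated start, 5′ to 3′ on the gene's strand. Capitals mark AGGTCA, the nuclear receptor hexamer, CAAAGTCCA, a core motif of HNF4, and TATAAA, the TATA box, each in either direction. Slco1a1 is at chr6:141946963-141947212 (minus strand), Slco1b2 at chr6:141629268-141629517 (plus strand), Cyp8b1 at chr9:121916306-121916555 (minus strand) and Abcb11 at chr2:69342617-69342866 (minus strand).
Slco1a1: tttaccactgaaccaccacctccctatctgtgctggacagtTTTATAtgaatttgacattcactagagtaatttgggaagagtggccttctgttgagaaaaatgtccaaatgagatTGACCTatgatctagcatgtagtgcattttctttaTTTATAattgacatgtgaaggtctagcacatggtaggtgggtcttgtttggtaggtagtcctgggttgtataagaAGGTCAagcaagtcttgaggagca
Slco1b2: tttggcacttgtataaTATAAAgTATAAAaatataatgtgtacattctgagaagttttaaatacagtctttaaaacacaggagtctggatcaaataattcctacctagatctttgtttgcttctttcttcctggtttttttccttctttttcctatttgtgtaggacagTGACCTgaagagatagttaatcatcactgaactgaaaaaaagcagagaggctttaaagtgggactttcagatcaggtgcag
Cyp8b1: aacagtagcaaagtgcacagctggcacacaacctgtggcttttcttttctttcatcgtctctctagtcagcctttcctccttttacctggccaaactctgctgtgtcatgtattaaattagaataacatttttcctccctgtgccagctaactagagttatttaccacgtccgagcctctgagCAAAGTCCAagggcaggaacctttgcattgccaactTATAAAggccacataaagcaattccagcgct
Abcb11: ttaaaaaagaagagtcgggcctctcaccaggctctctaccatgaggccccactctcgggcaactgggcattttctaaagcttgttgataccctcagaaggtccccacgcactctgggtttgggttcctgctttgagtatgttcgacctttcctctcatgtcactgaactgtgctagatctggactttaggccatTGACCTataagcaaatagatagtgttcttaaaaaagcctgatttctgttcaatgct

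Slco1a1 held AGGTCA at 2 places, with first bases at -134 and -24 from the start, and Slco1b2 and Abcb11 held it once each, at -81 and -56, as did Abcc2 at -49 and 1 of the Slc10a1 windows at -87. The hexamer occurs in 14% of all 32851 RefSeq promoter windows of this length. Cyp8b1 held CAAAGTCCA at -67, a motif found in 0.384% of windows, and TATAAA at -31, found in 12.4%. Pairs of AGGTCA spaced by 1 base matched in none of the 9 windows, neither inverted (0.00609% of all windows) nor direct (0.0335%). TTCNNNGAA, the STAT5 palindrome, matched in Slco1b2, Nr0b2 and 1 of the Slc10a1 windows and is in 7.02% of windows. TCAAGG, the LRH-1 core, matched in Nr0b2 alone of the 8 genes, at -68 and -35, and is in 12.5%. The window of Cyp27a1, which also fell in WT liver and is not shown, held none of these motifs. The matches describe letters and say nothing of binding.

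The alcohol diet was first compared with the control diet in WT liver. Of the 10 genes 6 fell and none rose, with values that did not overlap between the diets for the same 6. They were all 4 synthesis enzymes, the carrier Slco1a1 and the export pump Abcb11. Cyp7a1 and Slco1a1 entered the test only through the control libraries, where they were higher, and of the other 8 genes, which averaged at least 1 TPM on both diets, 4 fell. The falls ran from 132-fold for Slco1a1, 15.6-fold for Cyp7b1, 10.1-fold for Cyp7a1 and 6.77-fold for Cyp8b1 to 1.64-fold for Abcb11 and 1.42-fold for Cyp27a1, as ratios of mean TPM. Among all 9747 genes tested, 17.9% were called lower and 13.3% higher, 31.2% in all, and 18.4% were lower without overlap. An unadjusted p under 0.05 was reached by 7 of the 10 genes and by 43% of all genes. Differences were tested on log2(TPM + 1) with limma within the 8 WT libraries, and a gene was called at an adjusted p under 0.05. Without WT control replicate 3, the highest library of its group for 7 of the 10 genes, 3 stayed called (Slco1a1, Cyp7b1 and Cyp8b1), and without WT alcohol replicate 1 there were 4, Cyp7a1 beside them.

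**Figure D1:**
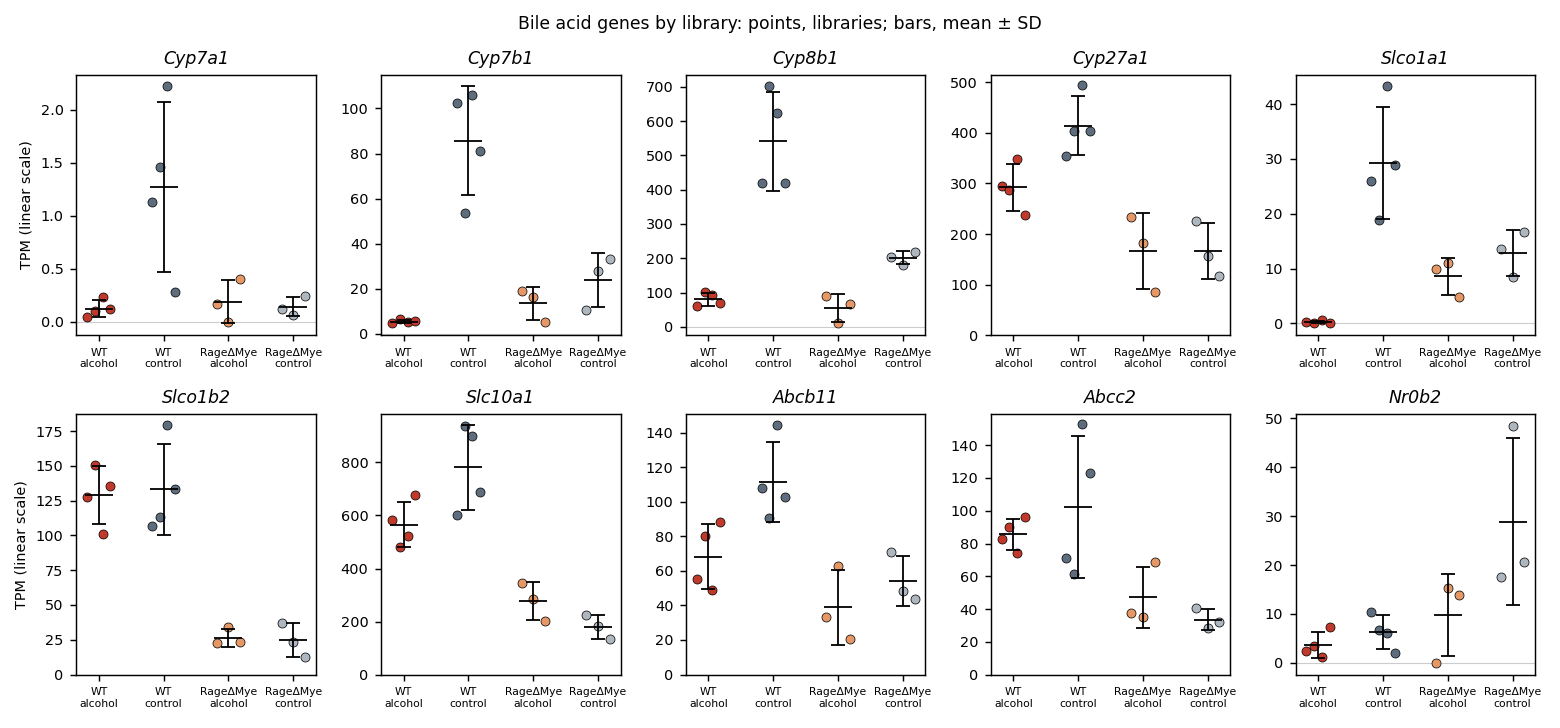
Levels of the 10 bile acid genes in TPM on linear axes, each with its own range, for WT alcohol, WT control, RageΔMye alcohol and RageΔMye control libraries. Points are libraries and bars are mean ± SD (n = 4, 4, 3 and 3), and WT alcohol points lie below all WT control points for Cyp7a1, Cyp7b1, Cyp8b1, Cyp27a1, Slco1a1 and Abcb11.

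Cyp7a1, on mm10 chromosome 4 (6265612 to 6275633, minus strand), was close to the limit of the tables. It was at 0.0493, 0.101, 0.233 and 0.118 TPM in WT alcohol libraries, against 1.13, 1.46, 2.22 and 0.279 TPM in WT control libraries. The groups did not overlap, but control replicate 4 lay near the alcohol libraries. Its log2 fold change was -0.94 (SE 0.23, adjusted p = 0.0121), and it was -3.09 with a pseudocount of 0.01. Cyp7a1 reached the 1 TPM needed for testing only through the control libraries, and without control replicate 3 it was not tested.

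Cyp7b1, on chromosome 3 (18071950 to 18243338, minus strand), was at 4.65, 6.44, 5.08 and 5.75 TPM in WT alcohol libraries, against 102, 53.6, 106 and 81.1 TPM in WT control libraries. All alcohol libraries lay far below the lowest control library, replicate 2. Its log2 fold change was -3.70 (SE 0.20, adjusted p = 8.7e-07) and ranged from -3.93 to -3.59 over 17 alternatives, in all of which it was called.

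Cyp8b1 consists of 1 exon on chromosome 9 (121914356 to 121916305, minus strand). It was at 59.2, 100.1, 91.3 and 69.0 TPM in WT alcohol libraries, against 419, 701, 625 and 420 TPM in WT control libraries. Control libraries fell into a higher pair, replicates 2 and 3, and a lower pair, and both stood above every alcohol library. The log2 fold change was -2.74 (SE 0.21, adjusted p = 1.3e-05), with a range of -2.88 to -2.5998 over 17 alternatives, and the gene was called in each.

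Cyp27a1, on chromosome 1 (74713574 to 74737892, plus strand), changed less. Its levels were 295, 287, 349 and 237 TPM in WT alcohol libraries and 355, 404, 495 and 403 TPM in WT control libraries. The highest alcohol library, replicate 3, lay just under the lowest control library, replicate 1. The log2 fold change was -0.51 (SE 0.14, adjusted p = 0.0235). It missed the threshold without any of WT control replicate 3 or WT alcohol replicates 1, 2 or 4, with adjusted p of 0.0503 to 0.0684.

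Set against Cyp27a1 within each library, where no scaling enters, the other 2 enzymes of the set with substantial levels were lower on alcohol. The ratio of Cyp8b1 to Cyp27a1 was 0.201 to 0.349 in WT alcohol libraries and 1.04 to 1.73 in WT control libraries. That of Cyp7b1 to Cyp27a1 was 0.0145 to 0.0242 on alcohol and 0.132 to 0.289 on control diet. Together, the 4 synthesis enzymes summed to 312 to 446 TPM on alcohol and 877 to 1228 TPM on control diet.

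Of the 3 uptake carriers only Slco1a1 passed the test. Slco1a1, on chromosome 6 (141907282 to 141946962, minus strand), was at 0.174, 0.0539, 0.558 and 0.0999 TPM in WT alcohol libraries, against 26.0, 18.9, 43.3 and 29.0 TPM in WT control libraries. Every alcohol library was below 1 TPM and every control library far above it. The log2 fold change was -4.59 (SE 0.23, adjusted p = 4.1e-07), and it was -7.41 with a pseudocount of 0.01, since a pseudocount of 1 compresses levels under 1 TPM. The gene was called in all 17 alternatives.

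Its neighbour Slco1b2, on chromosome 6 (141629518 to 141686646, plus strand), was at 128, 151, 101 and 136 TPM in WT alcohol libraries, against 107, 113, 179 and 133 TPM in WT control libraries. The ranges of the diets overlapped widely. Its log2 fold change was -0.03 (95% interval -0.43 to 0.36, adjusted p = 0.906). The ratio of Slco1a1 to Slco1b2 was at most 0.00552 in WT alcohol libraries and at least 0.167 in WT control libraries. Slc10a1, the main carrier of conjugated bile acids, on chromosome 12 (80953183 to 80968705, minus strand), was at 581, 481, 522 and 678 TPM in WT alcohol libraries, against 603, 937, 898 and 689 TPM in WT control libraries. Its groups overlapped by 1 library of each, alcohol replicate 4 and control replicate 1. The log2 fold change of -0.45 (SE 0.17, adjusted p = 0.0607) missed the threshold here and passed it in 6 of 17 alternatives, with TPM rescaled without the major urinary protein genes among them (-0.60, adjusted p = 0.0190). Slc10a1 made up 76.1% to 83.7% of the summed TPM of the 3 carriers in WT alcohol libraries and 80.2% to 87.6% in WT control libraries.

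Of the canalicular pumps 1 of 2 fell. Abcb11, on chromosome 2 (69238282 to 69342616, minus strand), was at 55.5, 79.9, 49.0 and 88.1 TPM in WT alcohol libraries, against 108, 90.8, 144 and 103 TPM in WT control libraries. Alcohol replicate 4 lay just under control replicate 2. Its log2 fold change was -0.72 (SE 0.21, adjusted p = 0.0235), and the call was lost without WT control replicate 3 (adjusted p = 0.0674), WT alcohol replicate 1 (0.0711) or WT alcohol replicate 3 (0.0597), and with no filter on low levels (0.0573). Abcc2, on chromosome 19 (43782192 to 43840740, plus strand), was at 82.5, 89.9, 74.1 and 96.1 TPM in WT alcohol libraries, against 71.4, 61.3, 153 and 123 TPM in WT control libraries. All alcohol values lay inside the control range (log2 fold change -0.16, 95% interval -0.73 to 0.41, adjusted p = 0.667). Nr0b2, on chromosome 4 (133553376 to 133556536, plus strand), was low in both groups, at 2.45, 3.40, 1.17 and 7.38 TPM in WT alcohol libraries and 10.3, 6.70, 6.04 and 1.89 TPM in WT control libraries. All control libraries but replicate 1 lay inside the alcohol range, and the log2 fold change was -0.67 (95% interval -1.67 to 0.33, adjusted p = 0.284).

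**Figure D2:**
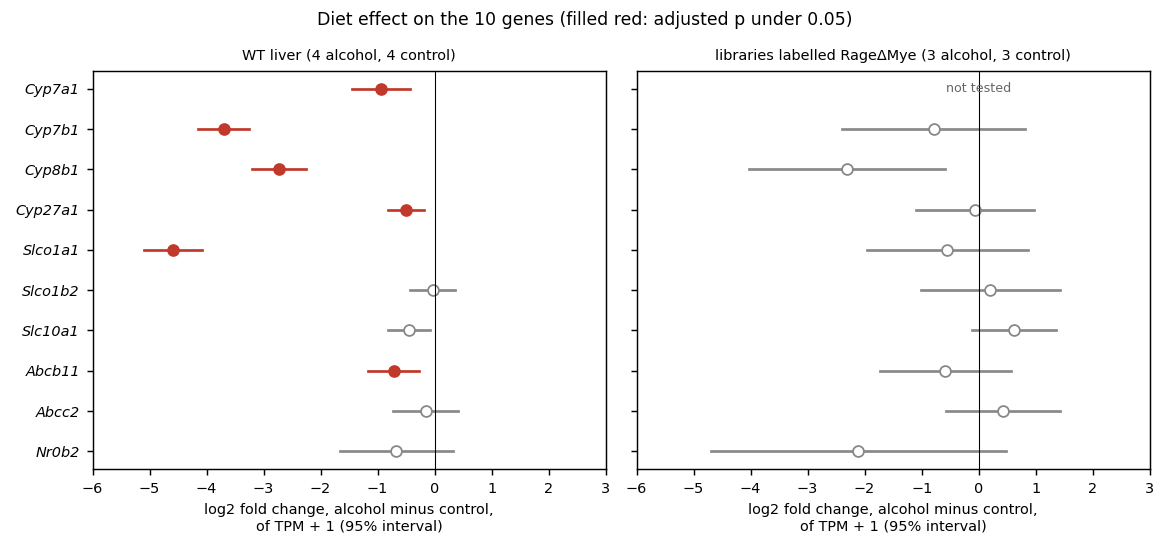
Log2 fold change of TPM + 1, alcohol minus control, with 95% intervals from limma, for the 10 genes in WT libraries (left) and libraries labelled RageΔMye (right). Filled red points mark an adjusted p under 0.05, which 6 genes reached in WT, from -4.59 for Slco1a1 to -0.51 for Cyp27a1, and none in libraries labelled RageΔMye, where Cyp7a1 was not tested.

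The major urinary protein genes took 0.177% to 0.251% of TPM in WT alcohol libraries and 7.26% to 10.9% in WT control libraries. Rescaling TPM without them moved the median log2 fold change of all genes by -0.13, to -0.17, and 25.8% of the calls were then higher, against 42.6% as deposited. All 6 genes were called under this rescaling too, which by construction lowers the WT fold changes. In libraries labelled RageΔMye the major urinary protein genes took 0.0460% to 1.13% of TPM on alcohol and 2.14% to 3.30% on control diet.

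In order of mean level, WT alcohol livers had Slc10a1, Cyp27a1, Slco1b2, Abcc2, Cyp8b1, Abcb11, Cyp7b1, Nr0b2, Slco1a1 and Cyp7a1. Neighbours in that order did not overlap between libraries, except Abcc2 with Cyp8b1, Cyp8b1 with Abcb11, Cyp7b1 with Nr0b2, and Slco1a1 with Cyp7a1. In WT control livers the order was Slc10a1, Cyp8b1, Cyp27a1, Slco1b2, Abcb11, Abcc2, Cyp7b1, Slco1a1, Nr0b2 and Cyp7a1. There the neighbours that did not overlap were Cyp27a1 and Slco1b2, Cyp7b1 and Slco1a1, and Slco1a1 and Nr0b2. Cyp8b1 thus ranked 5 of 10 on alcohol and 2 of 10 on control diet.

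Genes nearest to Slco1a1, Cyp7b1 and Cyp8b1, the 3 largest falls on the log2(TPM + 1) scale, were found by the Euclidean distance between profiles of log2(TPM + 1), taken relative to the WT control mean, over the 8 WT libraries. Nearest to Slco1a1 were the complement gene C6 (distance 0.762), at 8.20 ± 1.73 TPM in WT alcohol and 191 ± 28.4 TPM in WT control libraries (SD, n = 4 each), and Mup8 (1.33). Nearest to Cyp7b1 were Susd4 (1.03), at 0.727 ± 0.189 TPM on alcohol and 19.5 ± 6.29 TPM on control diet, and C4a (1.07). Cyp8b1 lay nearest to the potassium channel gene Kcnk5 (0.556), at 1.95 ± 0.490 TPM on alcohol and 16.1 ± 3.39 TPM on control diet, and to the taurine synthesis gene Csad (0.782), at 17.8 ± 5.37 TPM on alcohol and 111 ± 36.9 TPM on control diet. All 15 listed genes with higher expression in male liver, C6 among them, fell in the same libraries, against 17.9% of all genes tested. All 15 listed genes with higher expression in female liver rose, against 13.3%. How many of them entered the test only through the group where they were higher was not counted. In libraries labelled RageΔMye 7 of 14 tested genes of the male list were lower on alcohol without overlap, as 5.85% of all genes were, and 1 was called. Of the female list 7 of 15 genes were tested there. Without overlap 2 were higher on alcohol, against 5.83% of all genes, and none was called.

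Of 44 further genes of bile acid metabolism, 39 reached the level for testing in WT liver, and 8 rose, 12 fell and 19 did not pass, beside 13.3% of all genes higher and 17.9% lower. Cyp46a1, Abcc4 and Slc51b, 3 of the 8, entered the test only through the alcohol libraries, where they were higher. Among 14 tested genes of synthesis and conjugation 4 fell and 3 rose. Hsd3b7, which acts after the 7-alpha-hydroxylases, fell to 119 ± 13.5 TPM on alcohol, against 229 ± 19.8 TPM on control diet (log2 fold change -0.94, adjusted p = 3.7e-04). Scp2, a peroxisomal thiolase of side-chain shortening, fell to 347 ± 43.9 TPM on alcohol, against 694 ± 98.9 TPM on control diet (-0.99, adjusted p = 6.0e-04). Cyp2c70, which in mice makes muricholic acids, rose to 546 ± 79.3 TPM on alcohol, against 270 ± 77.6 TPM on control diet (1.04, adjusted p = 0.00343).

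Transporters outside the 10 genes moved both ways. The counts by role below stand beside 13.3% of all genes tested called higher and 17.9% called lower. Of 4 tested genes of the uptake list 2 rose and 1 fell. The 1 that fell was Ephx1, the gene of an epoxide hydrolase, so no carrier of this list was called lower. Slco1a4, a carrier of the same family as Slco1a1, rose to 27.7 ± 5.82 TPM on alcohol, against 9.02 ± 3.38 TPM on control diet (log2 fold change 1.56, adjusted p = 9.5e-04). Of 8 tested export genes 2 rose and 2 fell. Slc51b, a subunit of the basolateral exporter OST, rose to 4.30 ± 2.33 TPM on alcohol, against 0.360 ± 0.109 TPM on control diet (1.85, adjusted p = 0.00125, and 3.39 with a pseudocount of 0.01), while its partner Slc51a was listed at 0 in every liver library. Abcc4, the basolateral pump MRP4, rose to 2.55 ± 0.269 TPM on alcohol, against 0.561 ± 0.284 TPM on control diet (1.20, adjusted p = 2.1e-04, and 2.28 with a pseudocount of 0.01). Abcg2, a canalicular pump of sulfated and xenobiotic compounds, fell to 22.0 ± 2.63 TPM on alcohol, against 69.5 ± 9.27 TPM on control diet (-1.61, adjusted p = 1.6e-05). Among 13 tested regulators 1 rose and 5 fell. Hnf4a was the 1 that rose (log2 fold change 0.56, limma adjusted p = 0.0282). Nr1h4, the gene of FXR, was among the 5 that fell (-0.52, limma adjusted p = 0.0307). Klb, the co-receptor for the gut hormone FGF15, fell to 4.39 ± 0.790 TPM on alcohol, against 10.98 ± 1.86 TPM on control diet (-1.15, adjusted p = 5.0e-04).

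**Figure D3:**
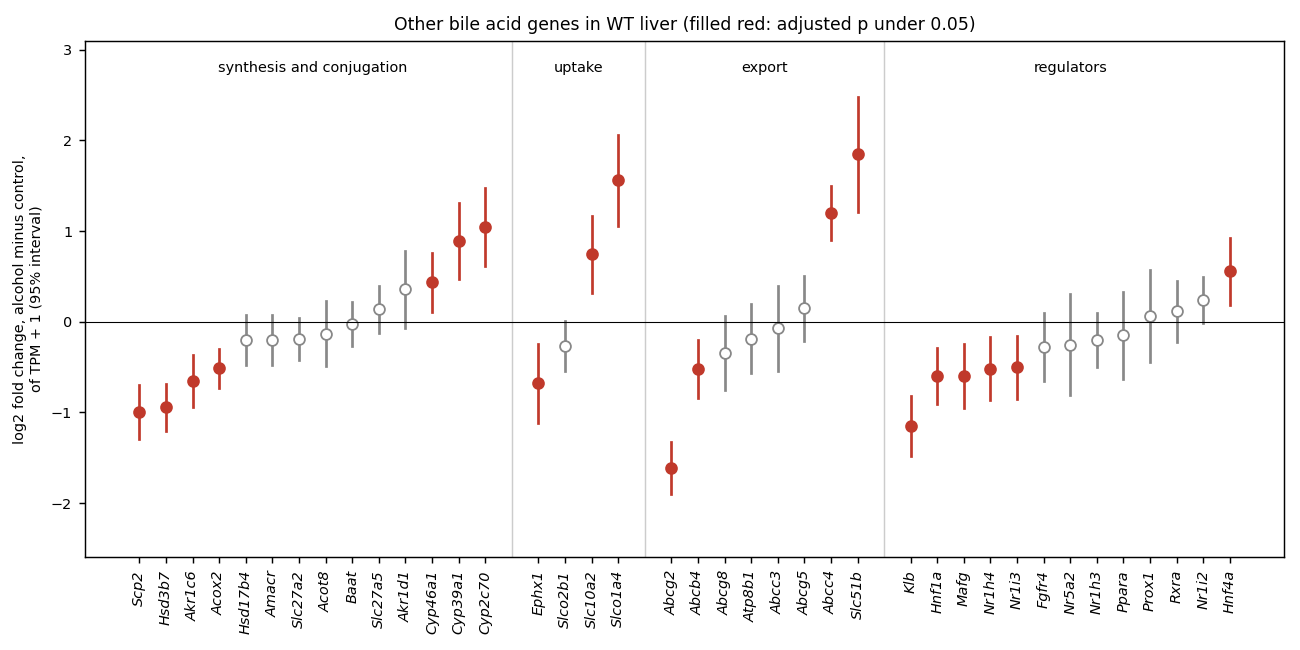
Log2 fold change of TPM + 1 in WT liver, alcohol minus control, with 95% intervals from limma, for 39 further bile acid genes grouped by role. Filled red points mark an adjusted p under 0.05, and they stand on both sides of 0, from -1.61 for Abcg2 to 1.85 for Slc51b.

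The same diets were compared in the libraries labelled RageΔMye, within their own 6 libraries. None of the 9 bile acid genes tested was called, and over all 10689 genes tested limma called 4, which is 0.0374%, with 0.0187% higher and 0.0187% lower. Cyp8b1 had an unadjusted p under 0.05, as 6.99% of all genes tested did. Cyp8b1 and Nr0b2 were lower on alcohol without overlap, 2 of 9 genes, against 5.85% of all genes tested, and no gene of the 9 was higher without overlap, against 5.83%. The spread between replicates was wide, with a median SD of 0.889 on the log2 scale on alcohol and 0.919 on control diet, against 0.161 in WT alcohol and 0.218 in WT control libraries. The median log2 fold change of the 9 genes was -0.55 and that of all genes tested 0.01.

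Cyp8b1 was at 90.5, 9.89 and 66.2 TPM in alcohol libraries labelled RageΔMye, against 203, 181 and 218 TPM in control libraries. Alcohol replicate 2 was far below the other two, and all 3 were under the controls. The log2 fold change was -2.31 (95% interval -4.03 to -0.58, unadjusted p = 0.0151, limma adjusted p = 0.555), and it was -1.36 without alcohol replicate 2. Cyp27a1 was at 233, 181 and 84.6 TPM in alcohol libraries and 226, 156 and 117 TPM in control libraries, which overlapped (-0.07, 95% interval -1.09 to 0.96, limma adjusted p = 0.990). The ratio of Cyp8b1 to Cyp27a1 was 0.0545 to 0.782 in alcohol and 0.899 to 1.87 in control libraries labelled RageΔMye.

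Cyp7b1 was at 19.2, 16.2 and 5.25 TPM in alcohol libraries labelled RageΔMye and at 10.4, 27.9 and 33.2 TPM in control libraries, and the groups overlapped (log2 fold change -0.79, 95% interval -2.39 to 0.81, limma adjusted p = 0.751). Slco1a1 was at 9.999, 11.1 and 4.74 TPM in alcohol and 13.6, 8.41 and 16.6 TPM in control libraries labelled RageΔMye (-0.55, 95% interval -1.97 to 0.86, limma adjusted p = 0.752). Without alcohol replicate 3, the lowest library for both, the values were -0.27 for Cyp7b1 and -0.22 for Slco1a1. In both genes the interval of libraries labelled RageΔMye lies above that of WT, and the test of that difference is given below. Cyp7a1 was listed at no more than 0.408 TPM in any library labelled RageΔMye and was not tested.

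Nr0b2 was listed at 0, 15.4 and 13.9 TPM in alcohol libraries labelled RageΔMye, against 17.5, 48.5 and 20.5 TPM in control libraries. The highest alcohol library was just under the lowest control library (log2 fold change -2.11, 95% interval -4.70 to 0.48, limma adjusted p = 0.710). The value was -0.79 without alcohol replicate 1, the library listed at 0, and -4.33 with a pseudocount of 0.01. Slc10a1 was at 347, 286 and 204 TPM in alcohol libraries and 226, 182 and 135 TPM in control libraries, with overlap (0.62, 95% interval -0.12 to 1.35, limma adjusted p = 0.695). For Slco1b2 (0.20, 95% interval -1.01 to 1.42), Abcb11 (-0.58, 95% interval -1.74 to 0.57) and Abcc2 (0.42, 95% interval -0.57 to 1.42) the intervals also included 0. Of the 36 further bile acid genes tested none was called, and 5 had an unadjusted p under 0.05, against 6.99% of all genes tested. These 5 are named after their values were seen. Abcc3, Abcg5 (2.47), Ephx1 (1.04) and Slco2b1 (1.32) were higher on alcohol and Cyp2c70 (-1.56) was lower. In WT liver Cyp2c70 was called higher (1.04) and Ephx1 lower (-0.68). The test of the difference between diet effects, described below, called neither. The widest of the 5 differences in libraries labelled RageΔMye was that of the basolateral pump gene Abcc3, at a mean of 58.0 TPM on alcohol and 6.55 TPM on control diet (3.01, unadjusted p = 0.00175, limma adjusted p = 0.207).

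The difference between the diet effects, RageΔMye minus WT, was tested in 1 fit of all 14 liver libraries with library weights estimated per genotype. No bile acid gene was called, against 61 of 12069 genes (0.505%), 0.315% higher and 0.191% lower, and 2 of the 10 had an unadjusted p under 0.05, against 8.5% of all genes. For Slco1a1 the difference was 4.04 on the log2 scale (95% interval 1.31 to 6.77, unadjusted p = 0.00689, limma adjusted p = 0.320). For Cyp7b1 it was 2.91 (95% interval 0.35 to 5.47, unadjusted p = 0.0285, limma adjusted p = 0.478). For Cyp8b1 it was 0.43 (95% interval -2.36 to 3.22, limma adjusted p = 0.966). Without weights, Slco1a1 (limma adjusted p = 3.9e-04) and Cyp7b1 (0.0259) were called, in a fit that gives both genotypes 1 spread. The libraries labelled by genotype also differ in Ager, in genes listed above 0 and in TPM of opposite-strand genes, as given above. Xist differed between the diets in WT liver and overlapped between them in libraries labelled RageΔMye. Its difference of diet effects was -4.79 on the log2 scale and was called lower. The Y-linked sums did not overlap between the diets under either genotype label. In libraries labelled RageΔMye they were 0.276 to 1.74 TPM on alcohol and 3.16 to 4.50 TPM on control diet. There too the diet and the difference in Y-linked transcripts cannot be told apart. Slco1a1 and Cyp7b1 were named above as genes with higher expression in males. The genotype cannot be told apart from any of these properties, the sex-linked transcripts included.

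In a mouse macrophage-like line, RAW264.7, 7 of the 10 genes were listed at 0 in all 6 libraries. Slc10a1 was at 24.5, 32.1 and 30.0 TPM in cells given the complex and at 35.0, 55.6 and 36.2 TPM in cells given BSA. Cyp27a1 was at 0 to 17.3 TPM with the complex and 4.94 to 20.2 TPM with BSA, and Nr0b2 was above 0 in 1 BSA library, at 5.75 TPM.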

How the data were processed

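The labels' protocols name Illumina's TruSeq Stranded mRNA preparation, and the submitters' processing notes name mm10. No aligner, counter, strand setting or annotation is given in the sources used here. A table of liver and a table of RAW264.7 cells were deposited, and their headers name no unit. The values the authors deposited were read as TPM, since they are not whole, share no step across genes as CPM would, and have the same total in every column. Tests for normalised values were therefore used, and depth is unknown. All 20 columns were used.

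Levels were transformed to log2(TPM + 1). A gene was tested where 1 or more groups of the fit averaged 1 TPM or above. Tests used limma 3.58.1 (R 4.3.3) with an intensity trend, and p was adjusted by Benjamini-Hochberg over all genes tested. Each genotype was fitted alone because its spread differed, and the difference of effects was fitted over 14 libraries with weights per genotype. Genes were placed with GENCODE vM21 (GRCm38, the assembly of mm10), which matched 24467 of 24972 symbols.

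The 10 genes, the lists and the tests were chosen with earlier results of these data known. Beside the 10 genes, those named are the 8 further bile acid genes with the smallest adjusted p among calls in a genotype and the 2 nearest profiles of the 3 largest falls on the log2(TPM + 1) scale. Abcc3, Abcg5, Ephx1, Slco2b1, Slc51a, Cyp46a1, Hnf4a and Nr1h4 are named outside this rule, after their values were seen. Alternatives were pseudocounts of 0.1 and 0.01, no filter, a filter at 5 TPM, joint fits with and without weights, no trend, quantile normalization, a replicate block and omission of each library. Rescaling without major urinary protein genes was chosen after seeing the data.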

Additional observations from a re-analysis of the deposited data

Results flagged for a closer look

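None of the 36 groups of 4 WT libraries checked, covering the 10 bile acid genes and the 8 further bile acid genes named for WT liver, held a library whose gap to its nearest neighbour exceeded 0.829 of the group's range, and for none of these 18 genes did the test of the difference between the genotypes pass.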

How the results depend on the processing

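In WT liver Slco1a1, Cyp7b1 and Cyp8b1 were called in each of 17 alternatives. Cyp27a1 and Abcb11 were called in 12 of 17 and Cyp7a1 in 14 of the 15 in which it was tested. The joint fit of 14 libraries, which lends WT libraries the wider spread of the others, called 337 genes, 3 of the 10 bile acid genes and 2 of the further 44. A filter at 5 TPM, which tests fewer genes, left 1881 calls. Omission of each library gave 2055 to 3469 calls, 3 to 7 of the 10 genes and 14 to 19 of the 44. Without a library, Slco1b2 ranged from -0.13 to 0.12 (above 0 without WT control or alcohol replicate 3, 0.12 and 0.08), and Abcc2 from -0.37 to 0.066 (above 0 without WT control replicate 3).

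In libraries labelled RageΔMye the 4 calls became 9 with the 5 TPM filter, 0 with a pseudocount of 0.01, 657 in the joint fit, 50 in the joint fit with weights, 37 with no trend, 7 with quantile normalization and 0 to 5 without a library. With a spread shared with WT, the joint fit called 1 of the 10 genes, Cyp8b1 (limma adjusted p = 0.0452), and 2 of the 44. Elsewhere the cause was not tested. With the replicate block the count of calls was 0. Same-numbered libraries deviated from their group means with correlations of -0.0163 to 0.0181, so the numbers were not taken to pair the samples, and of the 6 libraries only alcohol replicate 1 and control replicate 1 correlated best with their own number. Without a library, Cyp27a1 ranged from -0.37 to 0.36 (above 0 without control replicate 1, 0.18, or alcohol replicate 3, 0.36), and Slco1b2 from -0.17 (without control replicate 3) to 0.56.

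For the difference of effects, the fit with no weights gave 463 calls, with 2 of the 10 genes and 3 of the 44, against 50 to 71 calls without a library. Values that changed sign ranged from -0.16 (without RageΔMye alcohol replicate 1) to 1.38 for Cyp8b1, from -0.14 (without RageΔMye control replicate 3) to 0.59 for Slco1b2, and from -0.27 (without RageΔMye alcohol replicate 2) to 0.51 for Abcb11, which was also just below 0 without WT alcohol replicate 3 (-0.0052) and RageΔMye control replicate 3 (-0.00011). Depth is unknown, and the width of the intervals limits what the libraries labelled RageΔMye can show.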
